A study of Mus musculus with 4 samples.

Results

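Interferon-stimulated genes, the genes that cells switch on when an interferon reaches its receptor, were followed in 2 mammary tumor cell lines after the NOTCH1 transgene was turned off. The members were a list of 44 mouse genes known to respond to interferon, without antigen presentation genes or chemokines, and 42 of them had a probe set that the array annotation assigns to that gene alone, out of 18193 genes measured in this way. Isg15 and Ifi44 had no such probe set and are not analysed here. Where a gene had several probe sets, the brightest of them, by its mean log2 signal on the 4 arrays, stood for it. A value is the signal of that probe set in array units, or its log2, and it compares arrays and not genes, because probes differ in their brightness.

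Both lines, 8534 and 8542, were grown from primary mammary tumors of 2 female MMTV-tTA/TOP-ICN1 transgenic mice (FVB/N;B6), in which a tetracycline transactivator driven by the MMTV promoter expresses human intracellular NOTCH1 (ICN1) unless doxycycline is present. Cells of each line had been exposed to 2 µg/ml doxycycline over 24 hours (Dox, ICN1 off) or were left untreated (Untreated, ICN1 on). The cells on all 4 arrays carried both transgenes, each line stems from 1 tumor, and 1 array was made per line and condition. No cells without the transgenes were included, so that effects of the loss of ICN1 and of doxycycline itself cannot be told apart.

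Type I and type III interferons signal through the kinases JAK1 and TYK2 to a complex that includes STAT2 and IRF9 and binds the interferon-stimulated response element (ISRE) of its targets, whereas interferon gamma acts on gamma-activated sites (GAS). The products block viral entry, degrade or sense foreign RNA, modify proteins with the ubiquitin-like ISG15 and attack intracellular pathogens. Epithelial cells, mammary epithelium included, keep a low level of many of these transcripts without infection and carry receptors for several interferon types.

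More of these genes were higher than lower in Dox cells. In limma, with line as a block, 9 of the 38 members that passed the filter on low values (all but Ifit2, Mx2, Rtp4 and Sp100) rose (Ifit1, Ifit3, Trim25, Gbp2, Igtp, Irgm1, Zbp1, Ifi27 and Xaf1; adjusted p 0.00627 to 0.0488) and 0 fell, whereas among all 15070 genes tested 4.76% rose and 6.95% fell. At an unadjusted p under 0.05, limma gave 15 members higher and 1 lower, against 12.4% and 14.1% of all genes tested. By the simpler rule of the study's methods, more than 2-fold in both lines, 8 of the 42 members were higher (Ifit1, Ifit3, Trim25, Gbp2, Gbp3, Irgm1, Zbp1 and Rtp4) and 1 was lower (Oas2), against 3.09% of all genes higher and 4.42% lower. The median log2 change over the 42 members was 0.24 in line 8534 and 0.88 in line 8542, and over all genes it was 0.01 and -0.003. Changes spread from -1.70 to 4.02 in line 8534 and from -1.40 to 5.55 in line 8542, so that the list did not move as 1 block. In such bulk samples, fewer cells that express a gene and less of its RNA per cell cannot be told apart.

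**Figure D1:**
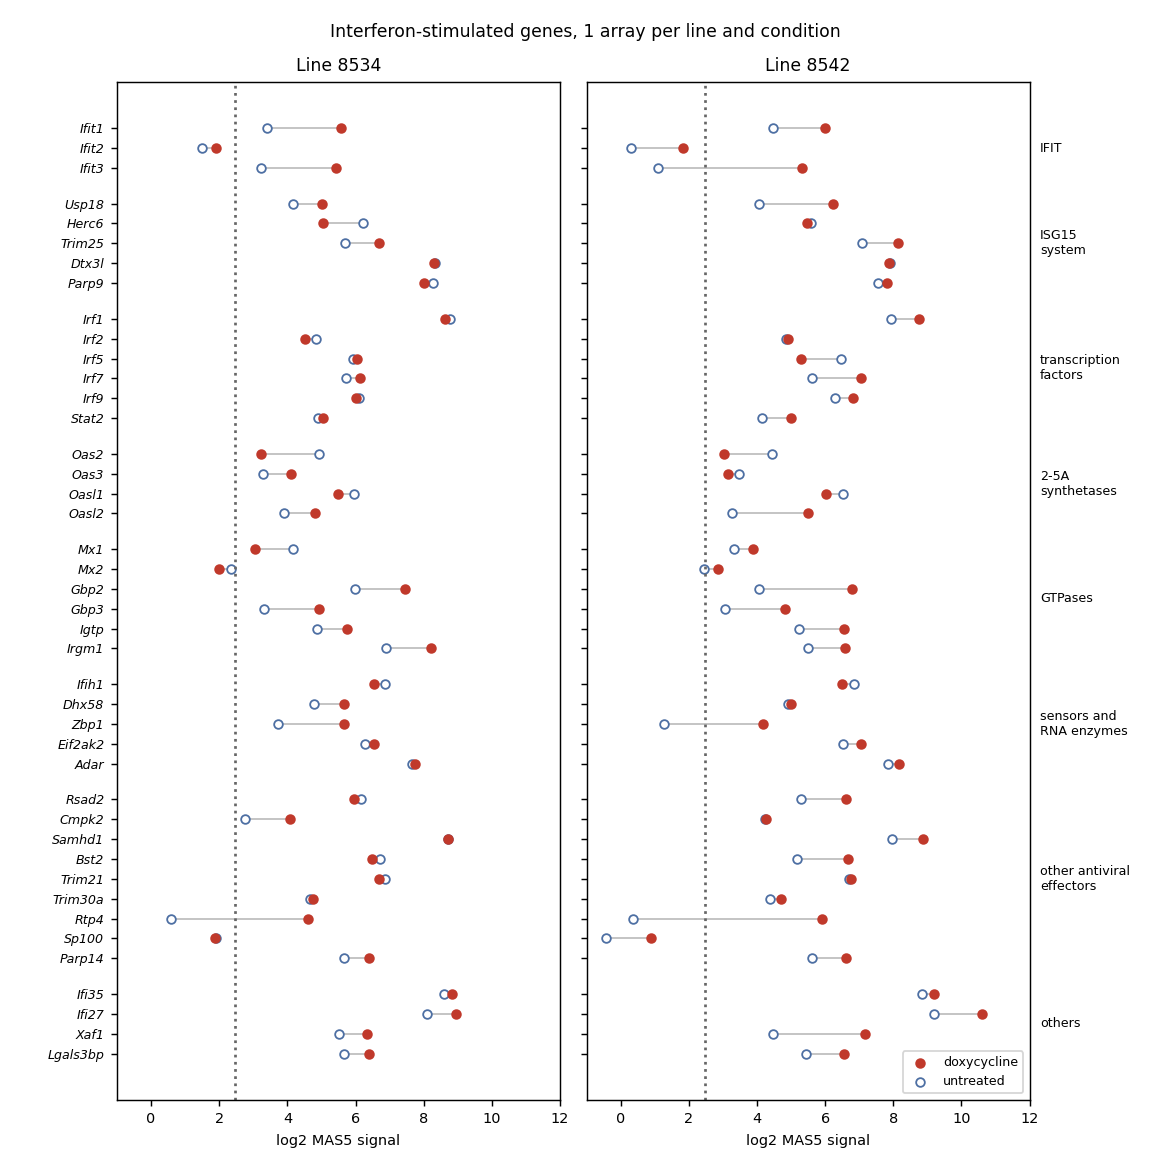
Signals of the 42 interferon-stimulated genes on the log2 scale in line 8534 (left) and line 8542 (right), grouped by role; filled red points are Dox arrays, open blue points Untreated arrays, 1 array each, and the dotted line is the 20th percentile of all values (2.47). Both Dox points lie more than 1 log2 unit to the right of the Untreated points for Ifit1, Ifit3, Trim25, Gbp2, Gbp3, Irgm1, Zbp1 and Rtp4, and only for Oas2 do both lie that far to the left.

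The limma calls rest on 1 residual degree of freedom and on a spread borrowed from other probe sets. With no block for line, or without an intensity trend of the variance, none of the members was called (lowest adjusted p 0.189 and 0.223). Of all 33778 probe sets fitted, 9 were called higher and 83 lower without the block, and 0 without the trend. The loss of calls was therefore not particular to the members. With signals below the 20th percentile of all values, 5.52 units, treated as too low to order, 36 of the 42 members were above this floor on all 4 arrays, and Ifit2 and Sp100 were below it on all 4.

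The IFIT genes had the largest median change of the role groups, 2.16 in line 8534 and 1.53 in line 8542. The Ifit1 protein binds foreign RNA whose cap lacks the methylation of host RNA. Ifit1 gave 47.4 units in Dox cells against 10.6 units in Untreated cells of line 8534, and 64.3 units in Dox cells against 22.2 units in Untreated cells of line 8542. Both Dox arrays were above both Untreated arrays, with a log2 change of 1.85 ± 0.44 on average (SD, n = 2 lines; limma adjusted p = 0.018). Ifit3, which stabilises IFIT complexes, gave 42.6 units in Dox and 9.42 units in Untreated cells of line 8534, and 40.3 units in Dox and 2.15 units in Untreated cells of line 8542. The Dox arrays were nearly alike and the Untreated arrays of the lines were not, with a mean change of 3.20 ± 1.45 (limma adjusted p = 0.0273). Since the Untreated signal of line 8542 was under the floor, the 18.7-fold ratio there is better read as at least 7.30-fold, the ratio against the floor of 5.52 units. Ifit2, their neighbour on chromosome 19, stayed under the floor on all arrays (3.77 and 3.52 units in Dox cells of lines 8534 and 8542, 2.84 and 1.23 units in Untreated cells), and no order can be read from it.

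The promoters of Ifit3 and Ifit1 are shown because both genes rose and both hold a pair of ISRE cores in the 250 bases before the transcription start. The bases are from RefSeq, mouse build GRCm38.p6, at chr19:34583279-34583528, plus strand, and chr19:34640639-34640888, plus strand, written 5′ to 3′ in the direction of the gene, with matches to the ISRE core GAAA-NN-GAAA on either strand in capitals.
Ifit3: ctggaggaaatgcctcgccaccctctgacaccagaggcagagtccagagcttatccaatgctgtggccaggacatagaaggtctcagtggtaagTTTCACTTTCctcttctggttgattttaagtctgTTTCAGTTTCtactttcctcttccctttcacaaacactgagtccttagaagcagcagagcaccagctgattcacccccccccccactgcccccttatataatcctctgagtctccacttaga
Ifit1: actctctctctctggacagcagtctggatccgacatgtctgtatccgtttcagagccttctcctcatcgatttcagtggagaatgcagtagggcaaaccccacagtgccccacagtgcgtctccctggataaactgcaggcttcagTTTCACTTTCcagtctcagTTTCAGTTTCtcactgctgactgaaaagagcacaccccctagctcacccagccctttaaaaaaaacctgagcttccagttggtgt
In Ifit3 the cores begin 156 and 122 bases before the start, and in Ifit1 104 and 85 bases before it. Each pair reads TTTCACTTTC and then TTTCAGTTTC, the same 2 words in the same order.

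The interferon-inducible GTPases, which take part in defence against intracellular pathogens or, for the Mx proteins, trap viral nucleocapsids, included 3 of the 9 genes that rose. Gbp2, a guanylate-binding protein, gave 176 units in Dox and 62.7 units in Untreated cells of line 8534, and 110.1 units in Dox and 16.6 units in Untreated cells of line 8542. Dox and Untreated arrays did not overlap, with a mean change of 2.11 ± 0.88 (limma adjusted p = 0.00771). A second probe set of Gbp2 rose as well, by 1.5 in line 8534 and 2.43 in line 8542 on the log2 scale. Irgm1, an immunity-related GTPase that also promotes autophagy, gave 296 units in Dox and 119 units in Untreated cells of line 8534, against 95.9 units in Dox and 44.7 units in Untreated cells of line 8542. The 2 conditions overlapped across lines, because line 8534 was the higher one throughout, and within lines the change was 1.32 and 1.10 (limma adjusted p = 0.00847).

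Igtp, a second immunity-related GTPase, gave 54.0 units in Dox and 29.1 units in Untreated cells of line 8534, and 94.7 units in Dox and 37.3 units in Untreated cells of line 8542. It passed the test (limma adjusted p = 0.0417) but not the 2-fold rule, at 1.86-fold in line 8534. Gbp3, which lies next but 1 coding gene to Gbp2 on chromosome 3, gave 30.5 units in Dox and 9.93 units in Untreated cells of line 8534, and 28.1 units in Dox and 8.41 units in Untreated cells of line 8542. Its changes were 1.62 and 1.74, without overlap of the conditions, and it missed the limma threshold (adjusted p = 0.0787). Mx1 was not called, with 8.35 units in Dox and 18.1 units in Untreated cells of line 8534 but 14.6 units in Dox and 10.1 units in Untreated cells of line 8542. Mx2 was at 4.02 to 7.28 units over the 4 arrays, near or under the floor, and was not tested.

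The 3 GTPase genes that rose each hold an ISRE core close to their start, and their promoters are shown for comparison with the IFIT pair: Gbp2 at chr3:142620413-142620662, plus strand, Igtp at chr11:58199306-58199555, plus strand, and Irgm1 at chr11:48871421-48871670, minus strand (RefSeq, GRCm38.p6, capitals as above and, in Igtp, also for the GAS motif TTCNNNGAA).
Gbp2: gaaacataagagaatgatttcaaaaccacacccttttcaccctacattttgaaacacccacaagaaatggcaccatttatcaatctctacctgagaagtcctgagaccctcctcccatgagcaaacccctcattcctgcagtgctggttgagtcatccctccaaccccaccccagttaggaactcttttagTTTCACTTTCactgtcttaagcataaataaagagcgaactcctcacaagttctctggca
Igtp: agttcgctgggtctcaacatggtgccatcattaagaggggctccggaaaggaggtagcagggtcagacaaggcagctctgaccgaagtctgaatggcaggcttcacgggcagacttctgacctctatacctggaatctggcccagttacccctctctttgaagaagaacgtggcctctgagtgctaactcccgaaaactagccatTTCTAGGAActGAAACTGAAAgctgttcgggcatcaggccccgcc
Irgm1: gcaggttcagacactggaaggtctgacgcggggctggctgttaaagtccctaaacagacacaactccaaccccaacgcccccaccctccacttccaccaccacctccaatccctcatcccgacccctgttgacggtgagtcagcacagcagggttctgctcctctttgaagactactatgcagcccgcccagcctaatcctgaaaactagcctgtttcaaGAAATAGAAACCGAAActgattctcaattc
The single core of Gbp2 has the same 10 letters as the first core of the IFIT pair and begins 59 bases before the start. In Igtp a GAS match begins 45 bases and an ISRE core 34 bases before the start. In Irgm1 2 cores overlap, beginning 30 and 24 bases before it.

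Among the genes of the ISG15 system, the ubiquitin-like tagging pathway, 1 of 5 rose (4.76% of all genes tested). Trim25, a ligase for ubiquitin and ISG15 that acts on the RNA sensor RIG-I, gave 104 units in Dox and 51.2 units in Untreated cells of line 8534, and 280 units in Dox and 135 units in Untreated cells of line 8542. On this probe set the lines lay apart by more than the response, and the changes were 1.03 and 1.05 (limma adjusted p = 0.0127), and 1.06 and 1.25 on a second probe set (adjusted p = 0.00942). The remaining, dimmer probe set was not called, with changes of 0.42 and 1.84 (limma adjusted p = 0.188) and Untreated log2 signals of 4.12 and 3.99 in lines 8534 and 8542, so that the likeness of the responses and the distance between the lines belong to 2 of the 3 probe sets. Usp18, which removes ISG15 and restrains the type I interferon receptor, changed by 0.86 in line 8534 and 2.17 in line 8542 and was not called (limma adjusted p = 0.0644). Herc6, the main ISG15 ligase of the mouse, was at -1.18 and -0.12. Its other, dimmer probe sets did not fall in line 8534 (0.24, 0.09 and 1.87) and were at -0.18, -1.93 and -0.16 in line 8542. Only the first of these passed the filter. The partners Dtx3l and Parp9, a ubiquitin ligase and its ADP-ribosyltransferase, which sit side by side with Parp14 on chromosome 16, had changes between -0.26 and 0.29 in both lines.

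Trim25 rose without an exact match to either motif in its window, and its upstream bases are given beside the genes above (chr11:88999153-88999402, plus strand, RefSeq, GRCm38.p6). They end in gttcagtttc, which differs only in its first letter from the core TTTCAGTTTC of the IFIT pair.
Trim25: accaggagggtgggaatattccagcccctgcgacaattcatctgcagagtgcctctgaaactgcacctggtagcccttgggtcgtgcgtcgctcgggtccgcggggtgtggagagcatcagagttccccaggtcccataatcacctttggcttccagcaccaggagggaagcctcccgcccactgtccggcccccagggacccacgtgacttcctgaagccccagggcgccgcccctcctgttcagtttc

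Of the 34 listed genes with a promoter in the RefSeq table, counting 250 bases before to 50 bases after the start, 16 (47.1%) held the ISRE core GAAA-NN-GAAA on either strand, against 3.99% of all 27025 genes with such a window. GAS matches (TTCNNNGAA) were in 9 of the 34 (26.5%), against 9.55% of all genes. Values were at hand for 15 genes with an ISRE core, of which 5 rose in limma, with a median change of 0.24 in line 8534 and 1.10 in line 8542. Of the 17 without a core 2 rose, with medians of 0.11 and 0.84. All 15 with a core were tested, but the 17 include Ifit2 and Sp100, which were under the floor and not tested. The shares that rose are therefore not on the same footing. For GAS, 1 of 9 genes with a match (Ifit2 among them) rose, with medians of 0.10 and 0.84. Among the 23 without a match (Sp100 among them) 6 rose, with medians of 0.42 and 1.05. A core did not go with a change in each gene: Trim21, an intracellular antibody receptor with overlapping cores 13 and 19 bases after its start, was at -0.16 in line 8534 and 0.04 in line 8542, and Ifih1, with a core 32 bases after its start, at -0.31 and -0.35. Cores before the start were also held by genes that limma did not call, namely Bst2, Gbp3, Irf2, Oas3, Rsad2, Stat2 and Trim30a. A match is a run of letters and was not tested for binding.

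None of the 6 transcription factor genes was called. Irf7, which drives the second wave of type I interferon genes, gave 70.8 units in Dox and 52.9 units in Untreated cells of line 8534, and 133 units in Dox and 48.8 units in Untreated cells of line 8542 (limma adjusted p = 0.0983). Changes of Stat2 and Irf9, both subunits of the ISRE-binding complex, were 0.14 and -0.07 in line 8534 and 0.86 and 0.54 in line 8542. Irf1, an activator of interferon gamma targets, was at -0.14 and 0.84, and its antagonist Irf2 at -0.31 and 0.07. Irf5, a factor of inflammatory cytokine genes, was at 0.11 in line 8534 and -1.19 in line 8542, and its second probe set at 0.40 and 0.60. The median of the 6 was 0.02 in line 8534 and 0.69 in line 8542.

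Oligoadenylate synthetases, which make the second messenger of the antiviral ribonuclease RNase L, held the only member more than 2-fold lower in both lines. Oas2 gave 9.27 units in Dox and 30.2 units in Untreated cells of line 8534, and 8.23 units in Dox and 21.6 units in Untreated cells of line 8542. Both Dox arrays were under both Untreated arrays, by 3.26-fold and 2.63-fold, but the gene did not pass the test (mean change -1.55, limma adjusted p = 0.122). Its neighbour Oas3, read at 8.92 to 17.2 units, was at 0.83 in line 8534 and -0.33 in line 8542. Oasl2 gave 28.0 units in Dox and 15.0 units in Untreated cells of line 8534, and 45.3 units in Dox and 9.60 units in Untreated cells of line 8542 (limma adjusted p = 0.094). Oasl1, adjacent to Oasl2 and in mouse a repressor of Irf7 translation, was at -0.46 and -0.51.

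Of the sensors of foreign nucleic acid and the RNA enzymes, 1 of 5 rose (4.76% of all genes tested). Zbp1, which recognises left-handed nucleic acid and starts necroptosis, gave 50.2 units in Dox and 13.2 units in Untreated cells of line 8534, and 18.0 units in Dox and 2.39 units in Untreated cells of line 8542. Dox arrays were above Untreated arrays without overlap, by 3.80-fold in line 8534 and, against the floor, at least 3.26-fold in line 8542 (limma adjusted p = 0.0488). A dimmer second probe set of Zbp1 differed between the lines, at 2.70 and -0.70. The RNA helicases Ifih1 (MDA5) and Dhx58 (LGP2), the kinase Eif2ak2 (PKR) and the deaminase Adar had changes from -0.35 to 0.88 and adjusted p of 0.311 or more.

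None of the 7 other antiviral effectors tested was called, and the highest ratios belonged to one that was not tested. Rtp4, a chaperone of G protein-coupled receptors that in bats also inhibits flaviviruses, gave 24.5 units in Dox and 1.51 units in Untreated cells of line 8534, and 60.5 units in Dox and 1.29 units in Untreated cells of line 8542. Both Untreated signals were under the floor, so that the signals were at least 4.43-fold and at least 10.9-fold higher in Dox cells. Rtp4 was below the filter on mean level and not tested, a fit over all probe sets gave it an adjusted p of 0.0217, and its other probe set was under the floor on all arrays. Bst2 (tetherin), which holds budding virions at the cell surface, gave 89.0 units in Dox and 105 units in Untreated cells of line 8534, and 103 units in Dox and 35.9 units in Untreated cells of line 8542. Rsad2 (viperin), which makes a chain-terminating nucleotide, gave 61.8 units in Dox and 70.8 units in Untreated cells of line 8534, and 98.4 units in Dox and 39.2 units in Untreated cells of line 8542. In both genes the Untreated array of line 8542 stood below the other 3 arrays on these probe sets, and neither was called (limma adjusted p = 0.396 and 0.42). The other, dimmer probe sets of Rsad2 did not show this order. Their Untreated log2 signals were 3.31 and 3.43 in line 8534, and 4.95 and 3.88 in line 8542.

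Cmpk2, a nucleotide kinase encoded next to Rsad2 on chromosome 12, gave 16.8 units in Dox and 6.72 units in Untreated cells of line 8534, and 19.1 units in Dox and 19.0 units in Untreated cells of line 8542 (limma adjusted p = 0.577). On this probe set the Untreated array of line 8534 stood below the other 3 arrays, whereas a dimmer second probe set, under the filter and not tested, was at 1.08 and 1.75. Samhd1, which degrades deoxynucleotides, was at 0.01 and 0.90 on its brightest probe set, while 1 of its 4 other probe sets fell, by 0.92 and 1.12 (limma adjusted p = 0.00899). Parp14, a mono-ADP-ribosyltransferase, was at 0.75 and 1.00 (limma adjusted p = 0.0545), and Trim30a, a mouse TRIM protein that dampens NF-kB signalling, at 0.09 and 0.30. Sp100, a nuclear body protein, was under the floor on all arrays, at 3.68 and 1.87 units in Dox cells of lines 8534 and 8542, and 3.72 and 0.744 units in Untreated cells.

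Of the 4 remaining members 2 rose (4.76% of all genes tested). Ifi27, a small membrane protein, had the lowest adjusted p of the list, with 497 units in Dox and 276 units in Untreated cells of line 8534, and 1549.6 units in Dox and 582 units in Untreated cells of line 8542. It rose by 0.85 and 1.41, and a second probe set rose by 0.66 and 1.32 (limma adjusted p = 0.00627 and 0.015). Xaf1, a pro-apoptotic binder of the caspase inhibitor XIAP, gave 80.4 units in Dox and 45.5 units in Untreated cells of line 8534, and 145 units in Dox and 22 units in Untreated cells of line 8542 (limma adjusted p = 0.0442). Its second probe set was at -0.07 and 0.17, so that the call belongs to 1 of the 2 probe sets. Lgals3bp, a secreted ligand of galectins, was at 0.75 and 1.10 (limma adjusted p = 0.0502), and Ifi35, a partner of the transcription factor BATF, at 0.25 and 0.34.

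The lines differed in how many members moved. In line 8534, 9 of 42 members were more than 2-fold higher in Dox cells and 3 more than 2-fold lower (9.62% and 9.70% of all genes), and in line 8542 20 were higher and 2 lower (9.94% and 11.4% of all genes). A change above 0 was seen for 27 members in line 8534 and 35 in line 8542 (51.1% and 49.8% of all genes), with 25 above 0 in both lines (32.7% of all genes), 5 below 0 in both (31.9%) and 12 of opposite sign (35.4%). Across the 42 members the changes of the lines ran together (Pearson r = 0.78, Spearman rho = 0.66), and across all genes r was 0.33 and rho 0.35. These are descriptions across genes, which share the 4 arrays.

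**Figure D2:**
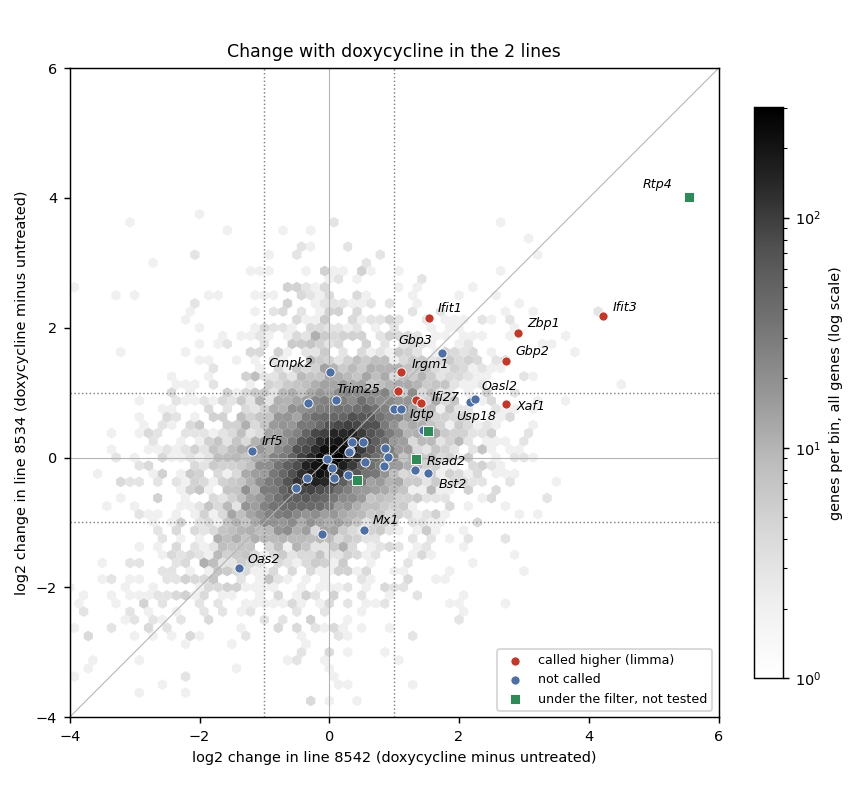
Log2 change, Dox minus Untreated, in line 8542 (x axis) and line 8534 (y axis) for the interferon-stimulated genes over the density of all 18193 genes (grey bins, log scale); red points rose in limma, blue points were not called, green squares were not tested, and dotted lines mark 2-fold. Ifit3, Gbp2, Zbp1, Ifit1 and Rtp4 lie beyond both upper lines, Oas2 alone of the members lies beyond both lower ones, and 33 of the 42 members lie below the diagonal.

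The change was the more positive one in line 8542 for 33 of the 42 members (49.8% of all genes), with a median difference of -0.50 (line 8534 minus line 8542). It was larger by over 2-fold in line 8542 for 13 members and in line 8534 for 3 (10.4% and 12.2% of all genes). The widest gaps in favour of line 8542 were those of Ifit3 (-2.05), Xaf1 (-1.90), Bst2 (-1.75), Mx1 (-1.65), Rtp4 (-1.53) and Rsad2 (-1.52), and those in favour of line 8534 were Cmpk2 (1.31), Irf5 (1.29) and Oas3 (1.16). The gaps of Ifit3 and Rtp4 rest on Untreated signals under the floor, and with low signals raised to the floor they were -0.69 and -1.30. The counts over 2-fold were then 10 in favour of line 8542 and 3 in favour of line 8534, and no share of all genes with the floor is given. The second probe sets of Cmpk2 and Irf5, given above, did not show the gap in favour of line 8534. That of Xaf1 showed little of the gap in favour of line 8542, at -0.07 in line 8534 and 0.17 in line 8542. Of the other probe sets of Rsad2, 1 had the reverse order (1.5 and -0.22) and 1 showed little of the gap (1.24 and 1.47). The other probe set of Rtp4 was under the floor on all arrays, and Ifit3, Bst2 and Mx1 had 1 probe set each. With 1 array per line and condition, no difference between the lines could be tested.

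Levels in Untreated cells also differed between the lines, with 27 of 42 members higher in line 8534 (48.7% of all genes). Untreated cells of line 8534 had more than 2-fold higher signals than those of line 8542 for 8 members, in log2 Zbp1 (2.47), Sp100 (2.32), Ifit3 (2.13), Gbp2 (1.92), Bst2 (1.55), Irgm1 (1.41), Ifit2 (1.21) and Xaf1 (1.05), against 10.1% of all genes. Untreated cells of line 8542 were the higher ones for 4, Cmpk2 (-1.50), Trim25 (-1.40), Ifi27 (-1.07) and Ifit1 (-1.06). These are 9.52% of the members, near the 8.06% of all genes. Of the 8 members, Sp100 and Ifit2 were under the floor in both lines, and Ifit3 and Zbp1 in line 8542. With low signals raised to the floor, the differences of Ifit3 and Zbp1 were 0.77 and 1.26 and the count was 5, and with a pseudocount of 5.52 units it was 4. No share of all genes is given with the floor or the pseudocount, so an excess of members cannot be read from these counts. The second probe sets of Zbp1 and Xaf1 did not show the difference in Untreated cells, and that of Gbp2 did. Their log2 signals in lines 8534 and 8542 were 2.24 (under the floor) and 2.92 for Zbp1, 5.35 and 5.44 for Xaf1, and 5.22 and 3.33 for Gbp2. In Dox cells 2 members, Irgm1 (1.63) and Zbp1 (1.48), were over 2-fold higher in line 8534 and 4, Ifi27 (-1.64), Trim25 (-1.43), Rtp4 (-1.30) and Usp18 (-1.21), in line 8542, against 11.0% and 7.76% of all genes. The median difference between the lines was -0.20 in Dox cells and 0.22 in Untreated cells. Differences over 2-fold in either direction numbered 6 of 42 in Dox cells and 12 of 42 in Untreated cells (18.8% and 18.2% of all genes). Because the same Untreated arrays enter the level and the change, the 2 quantities are set side by side without a measure of their relation.

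**Figure D3:**
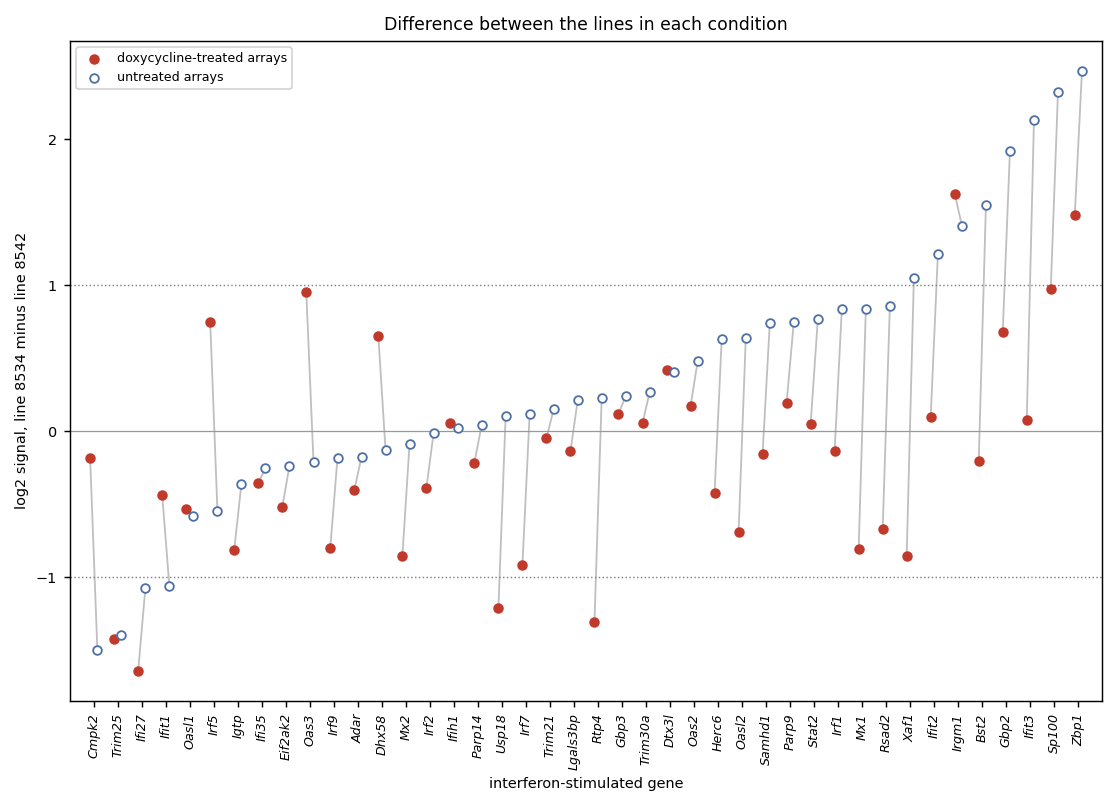
Difference between the lines, line 8534 minus line 8542 on the log2 scale, for each of the 42 interferon-stimulated genes in Dox cells (filled red) and Untreated cells (open blue), ordered by the Untreated difference; dotted lines mark 2-fold. On the probe sets plotted, for Gbp2, Bst2 and Xaf1 the Untreated difference is above 1 and the Dox difference lies between -0.85 and 0.68 (the Untreated difference of Ifit3, 2.13 as plotted, is 0.77 against the floor), whereas Irgm1, Zbp1, Trim25 and Ifi27 stay beyond the 2-fold lines in both conditions.

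Genes above and beside the list in the same pathway were counted from further lists. Beside these counts, 4.76% of all genes tested rose in limma and 6.95% fell. Of the interferon genes, 9 had a probe set and 5 were tested, and none was called. Ifnb1, the interferon beta gene, gave 21.2 units in Dox and 30.6 units in Untreated cells of line 8534, and 20.05 units in Dox and 28.2 units in Untreated cells of line 8542 (limma adjusted p = 0.472). Ifng, the interferon gamma gene, was at 1.03 to 2.92 units, under the floor on all arrays. Of 9 receptor and kinase genes 1 rose, Ifnlr1, the specific chain of the type III interferon receptor, with 226 units in Dox and 122 units in Untreated cells of line 8534, and 284 units in Dox and 139 units in Untreated cells of line 8542 (limma adjusted p = 0.0111). Ifnar1, Ifnar2, Ifngr1, Ifngr2, Jak1, Jak2 and Tyk2 had adjusted p of 0.14 or more.

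Of 8 tested genes for sensing and induction, Tlr3, the endosomal receptor for double-stranded RNA, rose (1.29 and 1.52, limma adjusted p = 0.00249) and Cgas, the cytosolic DNA sensor, fell (-0.84 and -1.54, adjusted p = 0.0182). The kinase gene Ikbke, under the filter and not tested, gave 27.6 units in Dox and 2.54 units in Untreated cells of line 8534, and 9.001 units in Dox and 1.59 units in Untreated cells of line 8542. None of 5 negative regulators was called, Socs1 and Socs3 among them. Of 22 tested further interferon-induced genes 4 rose and 1 fell, against 4.76% and 6.95% of all genes tested. The 4 were Ifitm3, a block to viral fusion (0.69 and 1.30), Tor3a, an ATPase of the endoplasmic reticulum (1.43 and 1.20), Parp12, an ADP-ribosyltransferase (0.85 and 1.75), and Helz2, a helicase (0.90 and 1.07), with limma adjusted p from 0.00924 to 0.035. Gbp6, a guanylate-binding protein as Gbp2 is, fell (-2.00 and -1.33, limma adjusted p = 0.0479). By the 2-fold rule, 3 of 25 genes of this list were higher (Tor3a, Irgm2 and Ddx60) and 2 lower (Gbp6 and Ifit1bl1). The shares of all genes were 3.09% and 4.42%. Untreated signals of Ddx60 in both lines and of Irgm2 in line 8542 were under the floor, as was the Dox signal of Ifit1bl1 in line 8534.

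**Figure D4:**
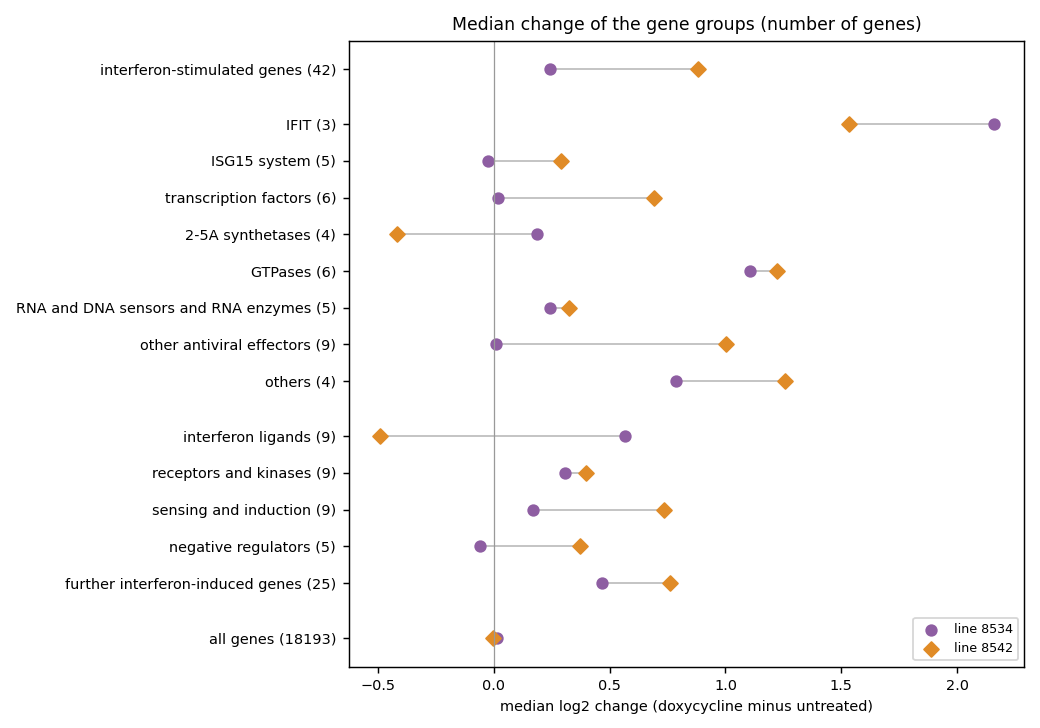
Median log2 change, Dox minus Untreated, in line 8534 (purple circles) and line 8542 (orange diamonds) for the 42 interferon-stimulated genes, their role groups, further lists of the pathway and all 18193 genes; numbers in parentheses are genes on the array. The GTPases (1.11 and 1.22) and the IFIT genes (2.16 and 1.53) lie to the right of 0 in both lines, the oligoadenylate synthetases (2-5A) at 0.18 and -0.42, and all genes at 0.01 and -0.003.

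The median signal was 29.1 to 30.5 units on the 4 arrays. Hey1, a direct NOTCH target that serves as a check of the labels, gave 96.4 units in Dox and 1137.8 units in Untreated cells of line 8534, and 101.04 units in Dox and 762 units in Untreated cells of line 8542 (limma adjusted p = 0.000283), whereas Hes1, another target, was at -0.80 and -0.40 and was not called (adjusted p = 0.0579). All 6 luminal markers were at 1415 units or more on the 4 arrays; Krt8 and Krt18 rose (limma adjusted p = 0.0295 and 0.0163), Krt19 fell (-0.82 and -0.92, adjusted p = 0.00302), and Krt7, Epcam and Cdh1 were not called. Of 8 leukocyte markers 7 were measured, none was called, and their summed signal was 288 and 234 units in Dox cells and 223 and 248 units in Untreated cells of lines 8534 and 8542, with the defining marker Ptprc (CD45) at 6.08 to 7.20 units, just above the floor. Other leukocyte markers were brighter over the 4 arrays: Csf1r at 102 to 123 units, Adgre1 at 36.6 to 57.02 units and Cd68 at 34.6 to 67.9 units. Itgax was at 20.6 to 32.2 units, and Cd3e and Itgam were at 15.9 units or less. The summed signal of 5 fibroblast markers was 865 and 690 units in Dox and Untreated cells of line 8534, and 131 and 134 units in those of line 8542, higher in line 8534 in both conditions. Col1a1, Col1a2 and Pdgfrb were each higher in line 8534 in both conditions. Pdgfra was lower there, at 3.63 and 21.0 units in Dox and Untreated cells against 9.74 and 23.6 units in line 8542. Dcn was at 18.5 and 20.5 units in line 8534, and 20.7 and 4.02 units in line 8542. The basal marker Krt14 also differed between the lines, at 869 and 1379 units in Dox and Untreated cells of line 8534 and 10.02 and 15.9 units in those of line 8542. The other basal markers did not follow it in both conditions. Krt5 was at 28.9 and 52.9 units in Dox and Untreated cells of line 8534 and 33.6 and 15.3 units in those of line 8542. Trp63 was at 17.4 and 7.53 units, and 11.3 and 8.85 units. The proliferation marker Mki67 fell in both lines (-3.31 and -4.65, limma adjusted p = 0.000612). The part of these markers in the results on interferon-stimulated genes was not tested.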

How the data were processed

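Total RNA of the 4 cell samples was hybridised to Affymetrix mouse genome arrays. The authors processed the arrays with MAS5 (its version is not given in the sources used here). The deposited values of the authors are log2 signals; the base was read from the values, since base 2 gave a trimmed mean signal of 97.3 to 101.3 units per array. The table holds 45101 probe sets, more than the A version of the array named in the methods would. After 64 control probe sets were left out, 34945 probe sets had 1 gene symbol, 932 several and 9160 none, and only the first were named. The number of arrays, 1 per line and condition, limits the precision.

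Changes were Dox minus Untreated log2 values within a line. limma 3.58.1 (R 4.3.3) fitted treatment and line, with an intensity trend and Benjamini-Hochberg adjustment, to 33778 probe sets, those whose mean log2 signal was not below 2.94, its 25th percentile; a call is an adjusted p under 0.05. Line is a block because both arrays of a pair are of the same cell line, and they deviated together (r = 0.36). The p-values measure the spread between 2 lines, moderated by other probe sets. Values of all arrays are given for members past the 2-fold rule, called by limma, or among the 8 with the largest difference between lines in Untreated level or in change, and for a few others chosen after their values were seen. Alternatives covered the filter, scaling, floor, pseudocount, probe set choice, block, trend and leaving out a line. The members and lists were chosen with earlier results of these data known. RefSeq promoters matched 34 of the 44 genes.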

Additional observations from a re-analysis of the deposited data

Results flagged for a closer look

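In 6 of the 12 members with changes of opposite sign the lines differed by over 2-fold, and the log2 change in line 8534 minus that in line 8542 is given for each. It was -1.75 for Bst2, -1.65 for Mx1, -1.52 for Rsad2 and -1.35 for Sp100, which were below 0 in line 8534 and above 0 in line 8542. It was 1.16 for Oas3 and 1.29 for Irf5, which were above 0 in line 8534 and below 0 in line 8542. The difference was not tested in any of them, since each line has 1 array per condition. Sp100 was under the floor on all arrays. The second probe set of Irf5 was above 0 in both lines (0.40 and 0.60), and the 2 other probe sets of Rsad2 were at 1.5 and -0.22 and at 1.24 and 1.47 in lines 8534 and 8542.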

How the results depend on the processing

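Of the 9 calls in limma, 0 were left without the replicate block for line and 0 without the intensity trend. Of all 33778 probe sets, 9 were called higher and 83 lower without the block, and 0 without the trend. At an unadjusted p under 0.05 in limma, 11 and 13 members were higher and 1 and 1 lower without the block and without the trend. Of all genes tested, 5.93% and 7.26% were higher and 8.77% and 8.87% lower. The cause was not tested. The other alternatives gave 6 to 10 members higher and 0 lower. With no filter on level 6 were called, of which 5 were among the 9, those of Ifit3, Zbp1, Xaf1 and Igtp being lost. Outside the block and the trend, Ifit1, Trim25, Gbp2, Irgm1 and Ifi27 kept their calls under all alternatives, while adjusted p spanned 0.0107 to 0.0537 for Ifit3, 0.043 to 0.191 for Zbp1, 0.0272 to 0.171 for Xaf1 and 0.0259 to 0.0807 for Igtp, highest for Zbp1 and Xaf1 with the mean of all probe sets of a gene and for the other two with no filter. With 1 line left out no test can be run; 20 members were more than 2-fold higher and 2 lower without line 8534, 9 higher and 3 lower without line 8542, and the median change was 0.88 and 0.24. Adding a pseudocount of 5.52 units left 0 members more than 2-fold lower in both lines. Members more than 2-fold higher in Untreated cells of line 8534 numbered 5 with the floor and 4 with the pseudocount, against 8 as deposited. The shares of all genes with the floor and the pseudocount are not given. The mean change turned sign for Dtx3l with quantile normalization (0.01 against -0.03), and with the mean of all probe sets for Dtx3l (0.008), Dhx58 (-0.06 against 0.49), Trim30a (-0.04 against 0.19) and Sp100 (-0.51 against 0.66), none of them called. Signals near the floor, and 1 array per line and condition, limit all line differences.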
